A study of Mus musculus with 15 samples.

Results

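The cells described here are 15lox/1572T cells, which carry a floxed allele of the tumour suppressor gene Apc (15lox) together with a hypomorphic allele (1572T). They were chosen by array title and make up 3 of the 15 arrays of the series. Their controls were 3 of the 6 wild-type (wt/wt) arrays, numbered 4 to 6. The remaining groups were 15lox/1638N, with a floxed allele and another hypomorphic allele (3 arrays), and 15lox/15lox, with a pair of floxed alleles (3 arrays). All mice were of the C57BL6 background. In every group LSK cells, a bone marrow fraction positive for Sca1 and Kit and negative for lineage markers, were transduced ex vivo with a retrovirus encoding Cre recombinase and green fluorescent protein, so the wild-type controls received Cre as well. The cells were kept in StemSpan medium supplemented with stem cell factor, thrombopoietin and Flt3 ligand, and fluorescent cells were sorted for RNA. The floxed allele was thus open to recombination only once Cre was delivered, whereas 1572T was inherited. The recombined share of the sorted cells is not given in the sources used here. The series set out to study Wnt signalling in blood-forming cells, and the 15lox/1572T arrays address the genotype with the mildest Wnt activation of the set.

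Apc is a scaffold of the cytoplasmic complex that phosphorylates beta-catenin and so marks it for destruction. Wnt ligands, or loss of Apc, stop that destruction, and beta-catenin then enters the nucleus, binds Tcf and Lef factors and switches on target genes. Axin2, Nkd1 and other targets feed back to damp the signal. In the blood system the strength of the signal is known to matter, since low and high activity have different effects on stem cells and on early lymphoid cells.

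Values are log2 levels of probe sets as the authors summarised them, with RMA named in the submitters' processing notes, and all differences are on that log2 scale, 15lox/1572T minus wild-type arrays 4 to 6, with the standard error (SE) of the limma fit unless another pair is named. Array medians of the series ran from 6.65 to 6.84. Correlations between arrays were 0.994 to 0.997 among wild-type arrays 4 to 6 and 0.985 to 0.993 among the 15lox/1572T arrays, and the mean SD within a group was 0.147 and 0.197. The labels do not say whether arrays of a group came from separate animals, so p-values reflect the spread among these arrays alone, which may be technical, and precision is limited by their number. Wild-type arrays 1 to 3 look shifted onto the mean of arrays 4 to 6: their means lay within 0.05 of each other at 96.7% of probe sets, against 25.6% for 15lox/1572T and wild-type arrays 4 to 6. They therefore stayed out of the fit. Xist, the RNA of the inactive X chromosome, read 13.8 on 15lox/1572T array 1 and 7.72 and 7.75 on arrays 2 and 3, where the wild-type arrays read 7.50 to 7.73. The 15lox/1572T group thus mixes 1 female-type and 2 male-type arrays, while its controls are male-type. In the other mutant groups 15lox/15lox arrays 2 and 3 and 15lox/1638N array 3 were female-type. Kit, Cd34 and Flt3, markers of the sorted population, were at percentiles 86, 98 and 96 of the levels of all probe sets. Kit differed from wild type by -0.11 ± 0.18, Cd34 by 0.08 ± 0.09 and Flt3 by -0.40 ± 0.15, and none passed the threshold. No single-symbol probe set stood for Ly6a, which encodes Sca1.

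The targeted gene was read by 4 probe sets, whose position relative to the changed part of Apc is not given in the sources used here. Probe set 1420956_at read 9.72, 9.61 and 9.93 in wild-type cells and 8.96, 8.86 and 8.64 in 15lox/1572T cells. All 3 mutant arrays lay below the controls, by 0.93 on average, yet the adjusted p over all probe sets was 0.103. In 15lox/15lox cells the same probe set read 5.58, 6.10 and 5.69, and the 15lox/1572T level was 8.18-fold above those (adjusted p = 5.4e-06). Its level in 15lox/1638N cells was 8.47, 8.67 and 8.52, and the difference of 0.27 between the hypomorph genotypes did not pass (adjusted p = 0.696). Probe set 1420957_at went from 8.93, 8.85 and 9.05 to 8.50, 8.30 and 7.72 (difference -0.77 ± 0.23, adjusted p = 0.505). Probe set 1450056_at went from 6.57, 6.85 and 6.43 to 6.22, 5.76 and 5.62 (difference -0.75 ± 0.17, adjusted p = 0.312). Probe set 1435543_at, which represents Apc among the genes as the one of highest mean, stood the other way, at 9.57, 9.61 and 9.85 in wild-type and 10.42, 10.11 and 10.07 in 15lox/1572T cells (difference 0.52 ± 0.13, adjusted p = 0.413). Groups did not overlap at any of the 4 probe sets, with 3 lower and 1 higher, and the mean over them was -0.48. None of the 4 passed in the main fit. With all 6 wild-type arrays as controls, 1420956_at (adjusted p = 0.00456), 1435543_at (adjusted p = 0.0373) and 1450056_at (adjusted p = 0.0328) passed, with unchanged differences. Those controls include the shifted arrays 1 to 3, so nothing is read from these passes.

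Few genes separated 15lox/1572T from wild type. Of 18194 genes, 20 passed an adjusted p of 0.05 (0.11%), 5 of them higher (0.0275%) and 15 lower (0.0824%) in 15lox/1572T cells. Over 2-fold, 3 were higher and 12 lower, and the median absolute difference of the 20 was 1.32. For 8 of the 20 the wild-type mean lay under the median of all probe sets. The lower direction also led among single values: 1803 genes (9.91%) had all 3 15lox/1572T arrays below all 3 wild-type arrays and 731 (4.02%) had them above, and at an unadjusted p under 0.05 there were 1066 lower and 374 higher genes. The median over all genes was -0.03. Adding the shifted wild-type arrays 1 to 3 to the controls raised the count to 197 (41 higher, 156 lower), and it is not used here for that reason.

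The number of calls rested on few arrays. It was 5 when wild-type array 5 was left out, 9 when wild-type array 4 was, 8 and 11 when 15lox/1572T array 1 or 2 was, 12 without 15lox/15lox array 1 or 2 or 15lox/1638N array 1, 13 without 15lox/1638N array 3, and 15 to 27 without each of the other 4. With sex type as a covariate 8 genes were called, and 2 with male-type arrays only. Cd14, Cdc23, Cd3g and Crispld2 passed whichever of the 12 arrays was left out, with adjusted p of at most 0.00383, 0.0356, 0.0216 and 0.0166. All 20 genes kept their sign in every alternative computed.

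**Figure D1:**
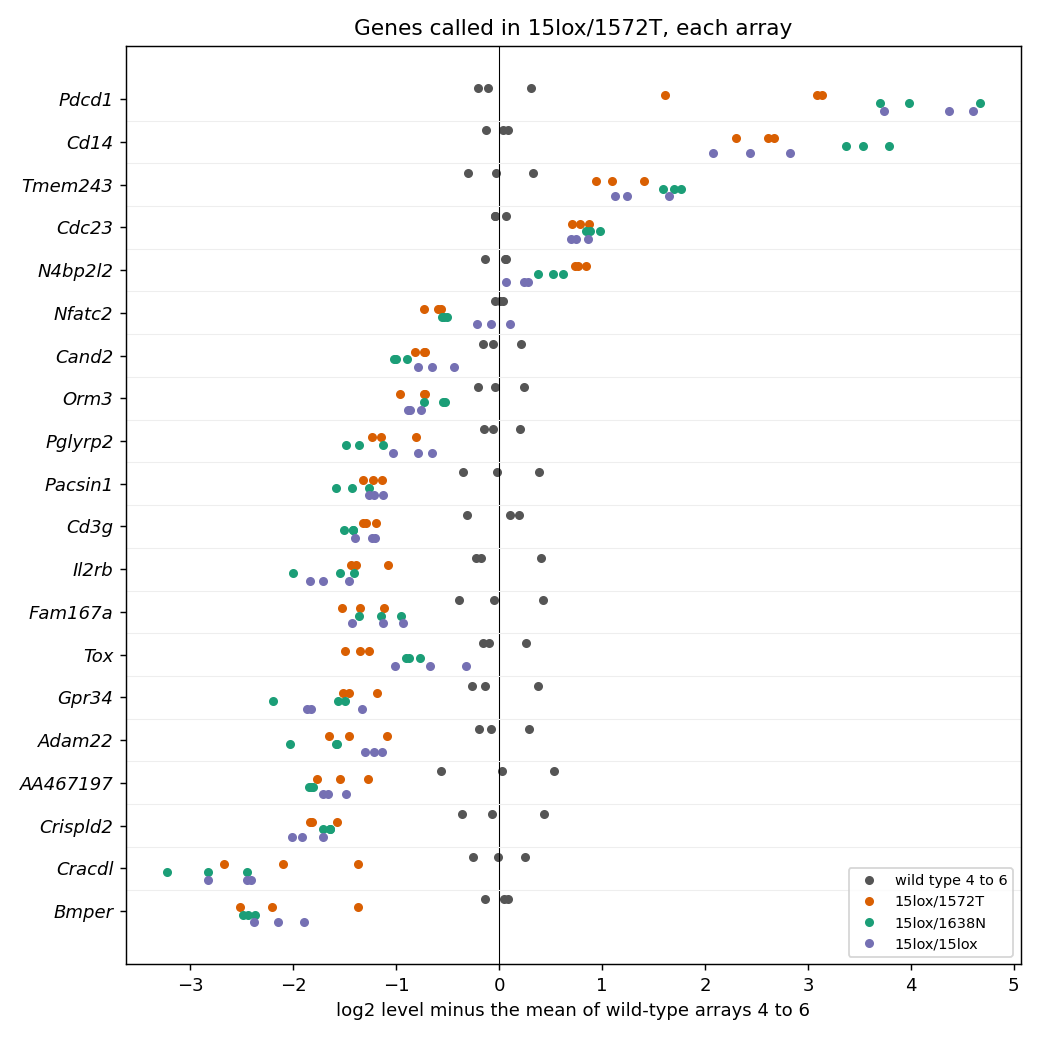
Log2 level of the 20 called genes on every array, minus the mean of wild-type arrays 4 to 6 (horizontal axis, log2 units; 1 row per gene; colours mark the genotype). For each gene all 3 15lox/1572T points lie outside the wild-type points, from 2.62 above on average for Pdcd1 to 2.04 below for Bmper, and most lie beside those of the other mutant genotypes.

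Cd14, the surface receptor by which monocytes and macrophages bind bacterial lipopolysaccharide, gave the lowest p of the 20. It read 6.62, 6.45 and 6.67 in wild-type cells and 9.19, 8.88 and 9.25 in 15lox/1572T cells. The mutant arrays agree closely (SD 0.20) and stand well above the controls, and Cd14 was 5.77-fold higher (2.53 ± 0.18, adjusted p = 0.000274). It passed in the fit with sex type (adjusted p = 0.000368), with male-type arrays only (adjusted p = 0.0023) and with the 2 groups alone (adjusted p = 0.00159), where it was the single gene called. In 15lox/1638N cells it read 10.37, 10.11 and 9.95, above every 15lox/1572T array, and in this direct comparison 15lox/1572T was lower by 1.03 (adjusted p = 0.0351). In 15lox/15lox cells it read 9.41, 8.66 and 9.02, a range that overlaps that of 15lox/1572T (difference 0.08, adjusted p = 0.968).

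Cd14 is a monocyte marker, and the rest of that list was mixed. Of 16 measured monocyte and macrophage markers, 4 had all 15lox/1572T arrays above wild type (25%, against 4.02% of all genes). For 2, Itgam and Cd163, all arrays lay below (12.5%, against 9.91% of all genes). Of the 16 differences 6 were positive and 10 negative, the lowest at -0.46. The median was -0.10, and Cd14 alone was called. The mean level of the list was 9.37 to 9.58 on the wild-type arrays and 9.44 to 9.80 on the 15lox/1572T arrays. F13a1, a coagulation factor subunit of monocytes and platelets, differed by 0.91 ± 0.29 (adjusted p = 0.41), Ms4a6c by 0.78 ± 0.24 (adjusted p = 0.4) and Ccr2, the chemokine receptor of inflammatory monocytes, by 0.36 ± 0.13 (adjusted p = 0.497). The part of monocytic cells in the Cd14 value was not tested.

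Pdcd1 encodes PD-1, the inhibitory receptor that lymphocytes carry after activation. It read 6.40, 6.50 and 6.92 in wild-type cells and 8.22, 9.75 and 9.70 in 15lox/1572T cells. Array 1, the female-type array, lay below the other 2 but above every control, and the mean was 6.13-fold higher (2.62 ± 0.39, adjusted p = 0.0374). In 15lox/1638N cells Pdcd1 read 10.59, 10.31 and 11.28 and in 15lox/15lox cells 11.21, 10.35 and 10.98. All of these lay above the 15lox/1572T arrays, but the differences from 15lox/1572T did not pass (-1.50, adjusted p = 0.236, and -1.62, adjusted p = 0.0776). With male-type arrays only Pdcd1 was 3.12 higher than wild type and was called (adjusted p = 0.0023), as the second gene beside Cd14. With sex type as a covariate the difference was 2.75 and narrowly missed the threshold (adjusted p = 0.0525). The call also ended without 7 of the 12 arrays, namely all of the controls singly, 15lox/1572T arrays 2 and 3, 15lox/15lox array 1 and 15lox/1638N array 1 (adjusted p from 0.0536 to 0.192).

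Cdc23, a subunit of the anaphase-promoting complex that drives exit from mitosis, read 11.28, 11.39 and 11.28 in wild-type and 12.11, 12.19 and 12.03 in 15lox/1572T cells. The groups stand apart with little spread, and Cdc23 was 1.73-fold higher (0.79 ± 0.08, adjusted p = 0.00496). Its other 2 probe sets gave 0.50 and 0.09, and the mean over the 3 did not pass (0.46, adjusted p = 0.192). Tmem243 rose by 1.15 ± 0.18 (adjusted p = 0.045), from 8.62, 8.35 and 8.98 to 9.75, 9.59 and 10.06. N4bp2l2 rose by 0.79 ± 0.10 (adjusted p = 0.0111), from 7.07, 7.27 and 7.28 to 7.98, 8.05 and 7.95. It was the only gene called higher whose mean was above those of both other mutant genotypes, by 0.28 over 15lox/1638N (adjusted p = 0.432) and by 0.59 over 15lox/15lox (adjusted p = 0.00772). Another probe set gave -0.13 for Tmem243 and 0.10 for N4bp2l2. The N4bp2l2 call was lost on leaving out either of wild-type arrays 4 and 5 or either of 15lox/1572T arrays 1 and 2 (adjusted p from 0.0523 to 0.0715), and that of Tmem243 without 10 of the 12 arrays (adjusted p from 0.0556 to 0.233).

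Among the 15 lower genes are several that encode secreted and surface proteins. Bmper, a secreted protein that binds bone morphogenetic proteins, fell from 6.46, 6.42 and 6.23 to 4.16, 3.85 and 5.00 (-2.04 ± 0.23, 4.10-fold, adjusted p = 0.0083). Crispld2, a secreted protein with a cysteine-rich domain, fell from 7.11, 7.62 and 6.82 to 5.60, 5.36 and 5.34 (-1.75 ± 0.17, adjusted p = 0.00257). Adam22, a catalytically inactive member of the ADAM surface proteins, fell from 8.34, 8.46 and 8.83 to 7.08, 7.45 and 6.89 (-1.40 ± 0.17, adjusted p = 0.0111). In each of the 3 genes every 15lox/1572T array lay well below the lowest control. Other probe sets gave -0.58 and -0.44 for Crispld2 and -0.22 for Adam22. With the mean of probe sets the differences were -0.93 (adjusted p = 0.00477) and -0.81 (adjusted p = 0.00461). Cracdl fell from 9.86, 10.12 and 9.62 to 7.20, 7.77 and 8.50 (-2.04 ± 0.29, adjusted p = 0.0315), with array 3 the least changed, as for Bmper. Pglyrp2, an amidase that cleaves bacterial peptidoglycan, fell by 1.06 ± 0.15 (adjusted p = 0.0315). Orm3, an acute phase glycoprotein of the orosomucoid family, fell by 0.80 ± 0.12 (adjusted p = 0.0374). Fam167a fell by 1.33 ± 0.20 (adjusted p = 0.0374), and the 2 genes left outside the naming rule were Cand2 (-0.75) and the placeholder symbol AA467197 (-1.53). Orm3 and Fam167a fell to means of 4.76 and 4.98, at the low end of the scale.

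Further lower genes are known from lymphocytes and dendritic cells. Cd3g, the gamma chain of the T cell receptor complex, read 6.28, 6.20 and 5.78 in wild-type and 4.89, 4.77 and 4.80 in 15lox/1572T cells (-1.27 ± 0.12, adjusted p = 0.00257). Tox, a nuclear protein needed for T cell development, fell from 9.43, 9.07 and 9.01 to 7.67, 7.82 and 7.91 (-1.37 ± 0.17, adjusted p = 0.0108). Il2rb, the beta chain shared by the receptors for interleukins 2 and 15, fell by 1.31 ± 0.20 (adjusted p = 0.0374). The 15lox/1572T arrays agree closely for these genes, with an SD of 0.06 for Cd3g, 0.12 for Tox and 0.19 for Il2rb. Pacsin1, an endocytic adaptor that marks plasmacytoid dendritic cells, fell from 6.44, 6.85 and 6.11 to 5.23, 5.14 and 5.32 (-1.23 ± 0.16, adjusted p = 0.0147). Gpr34, a receptor for lysophosphatidylserine on myeloid cells, fell by 1.39 ± 0.22 to a low mean of 5.24 (adjusted p = 0.0492). Nfatc2, a calcium-regulated transcription factor of lymphocytes, fell from 11.20, 11.28 and 11.25 to 10.67, 10.65 and 10.51 (-0.63 ± 0.09, adjusted p = 0.0374). Its 5 other probe sets gave -0.48 to 0.23, and with the mean of probe sets neither Tox (-0.86, adjusted p = 0.0811) nor Nfatc2 was called.

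Single arrays decided several of these lower calls. That of Bmper ended without wild-type array 5 (adjusted p = 0.0523). Those of Tox and Adam22 ended without wild-type array 5 or 15lox/1572T array 1 (adjusted p from 0.0523 to 0.0573). That of Pacsin1 ended without wild-type array 4 or 15lox/1572T array 1 or 2 (adjusted p from 0.0641 to 0.0715). The calls of 9 further lower genes ended without 7 to 11 of the 12 arrays, wild-type array 5 and 15lox/1572T array 1 among them in each case, with adjusted p from 0.0527 to 0.222. Sex type as a covariate ended 10 of the 15 lower calls, those of Pacsin1, Nfatc2, AA467197, Pglyrp2, Cracdl, Cand2, Fam167a, Gpr34, Orm3 and Il2rb (adjusted p from 0.0525 to 0.0982). Those of Cd3g, Crispld2, Tox, Bmper and Adam22 held (adjusted p from 0.0105 to 0.0343).

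Against the stronger genotypes, most of the 20 did not stand apart. Only Cd14 differed from 15lox/1638N, and N4bp2l2 and Nfatc2 differed from 15lox/15lox, 3 genes in all. Nfatc2 was lower in 15lox/1572T than in 15lox/15lox by 0.57 (adjusted p = 0.00791), since its mean in 15lox/15lox was 11.18, near the wild-type mean of 11.24. For Tox the 15lox/1572T mean of 7.80 was below those of 15lox/1638N (8.31) and 15lox/15lox (8.50), but neither difference passed (adjusted p = 0.381 and 0.065). The fold changes against wild type of the 3 mutant genotypes share their controls, so values are given side by side only. For Bmper they were -2.04, -2.43 and -2.14 in 15lox/1572T, 15lox/1638N and 15lox/15lox, and for Crispld2 -1.75, -1.67 and -1.88. Cd3g gave -1.27, -1.45 and -1.28, and Pacsin1 gave -1.23, -1.43 and -1.21. The direct differences of 15lox/1572T from the other genotypes were at most 0.40 for these 4 genes, and none of them passed. All 4 read between 3.85 and 5.60 in the mutant genotypes, at the low end of the scale, so their likeness is not read as a result. Cracdl, at a higher level, was 0.79 above 15lox/1638N and 0.52 above 15lox/15lox (adjusted p = 0.461 and 0.672).

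Axin2 and the other Wnt target genes did not pass against wild type. Axin2, the feedback inhibitor used most widely as a reporter of the pathway, read 7.26, 7.38 and 7.57 in wild-type cells and 7.69, 8.80 and 9.32 in 15lox/1572T cells. Each mutant array lay above each control, but the 3 were spread widely (SD 0.83), and the mean difference of 1.20 ± 0.31 (2.30-fold, 95% interval 0.51 to 1.89) did not pass (adjusted p = 0.294). Array 1, the female-type array, was the lowest. Without it the difference was 1.66 and passed (adjusted p = 0.013), but dropping the lowest mutant array raises the mean by itself. Leaving out any other array did not lead to a pass (adjusted p from 0.272 to 0.63). With sex type as a covariate the difference was 1.33 (adjusted p = 0.308). The other Axin2 probe set gave 0.23. In 15lox/1638N cells Axin2 read 11.17, 11.10 and 11.51 and in 15lox/15lox cells 12.28, 12.29 and 11.94. The 15lox/1572T level was 6.29-fold lower than the former (adjusted p = 0.00399) and 11.8-fold lower than the latter (adjusted p = 7.43e-05).

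**Figure D2:**
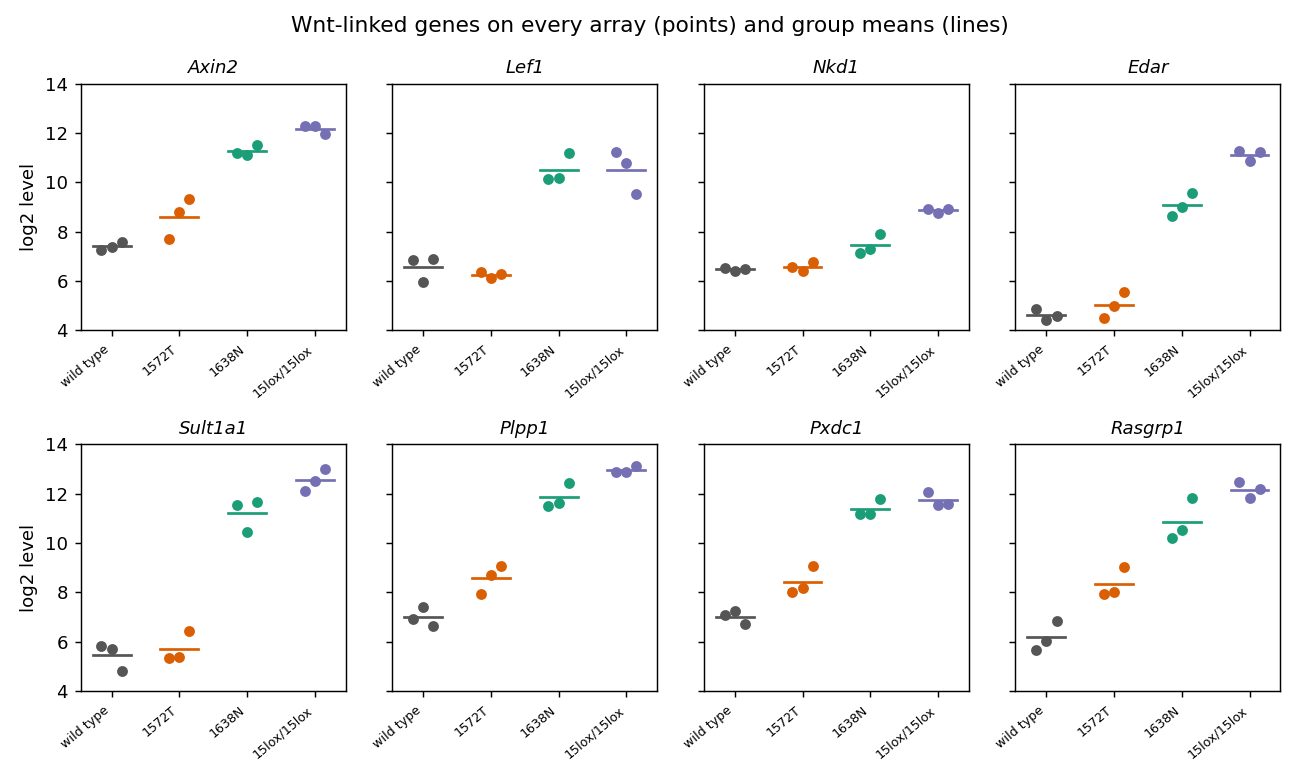
Log2 level (vertical axis) of 8 genes on every array, by genotype, with lines at the group means. Axin2, Lef1, Nkd1 and Edar are on the lists of Wnt pathway genes used here, and Sult1a1, Plpp1, Pxdc1 and Rasgrp1 are not. Axin2, Plpp1, Pxdc1 and Rasgrp1 have all 15lox/1572T points between wild type and the stronger genotypes, while Lef1, Nkd1, Edar and Sult1a1 in 15lox/1572T overlap wild type.

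For 5 other genes that are high in the stronger genotypes the 15lox/1572T arrays overlapped wild type. Sult1a1, the last of them, is on none of the lists of Wnt pathway genes used here. Lef1, the transcription factor that partners beta-catenin, read 6.85, 5.96 and 6.91 in wild-type and 6.36, 6.12 and 6.30 in 15lox/1572T cells (-0.31 ± 0.41, 95% interval -1.21 to 0.59). It was 18.8-fold lower than in 15lox/1638N cells, which read 10.15, 10.16 and 11.17 (adjusted p = 0.000845). Nkd1, an inhibitor of the Wnt adaptor Dishevelled, read 6.54, 6.39 and 6.48 in wild-type and 6.55, 6.42 and 6.78 in 15lox/1572T cells (0.12 ± 0.17, interval -0.26 to 0.50). Apcdd1, a membrane-bound Wnt inhibitor, differed by 0.08 ± 0.23, with 9.12, 9.28 and 9.99 on the mutant arrays. Edar, the receptor for ectodysplasin, read 4.85, 4.40 and 4.58 in wild-type and 4.51, 4.99 and 5.54 in 15lox/1572T cells (0.41 ± 0.27, interval -0.19 to 1.00). Sult1a1, a sulfotransferase that conjugates phenols, read 5.81, 5.69 and 4.83 in wild-type and 5.33, 5.38 and 6.42 in 15lox/1572T cells (0.26 ± 0.40, interval -0.61 to 1.14). These intervals still allow changes of 1 log2 unit or slightly more for some of these genes. Against 15lox/15lox all 5 were lower in 15lox/1572T and passed. Against 15lox/1638N the difference passed for Lef1, Apcdd1, Edar and Sult1a1 but not for Nkd1 (-0.86, adjusted p = 0.0813).

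A further set of genes that are high in the stronger genotypes had 15lox/1572T levels between those and wild type, without passing. Nrp2, a receptor for semaphorins and vascular endothelial growth factors, read 6.21, 6.80 and 6.74 in wild-type and 7.87, 8.13 and 8.86 in 15lox/1572T cells (1.70 ± 0.29, adjusted p = 0.07). Rasgrp1, an activator of Ras downstream of the T cell receptor, read 5.67, 6.03 and 6.86, against 7.95, 8.03 and 9.01 (2.14 ± 0.43, adjusted p = 0.147). Plpp1, a phosphatase of lipid phosphates, read 6.92, 7.39 and 6.65, against 7.92, 8.72 and 9.09 (1.59 ± 0.31, adjusted p = 0.134). In all 3 genes array 3 was the highest of the mutant arrays and the groups did not overlap. Pxdc1 gave 1.41 ± 0.27 (adjusted p = 0.134), Btla, an inhibitory receptor of lymphocytes, 1.20 ± 0.23 (adjusted p = 0.134) and Igsf3 0.98 ± 0.19 (adjusted p = 0.122). Against 15lox/1638N the levels in 15lox/1572T were lower and passed for Plpp1 (-3.28, adjusted p = 0.000845), Pxdc1 (-2.97, adjusted p = 0.000845), Rasgrp1 (-2.52, adjusted p = 0.0308), Nrp2 (-1.75, adjusted p = 0.0289) and Igsf3 (-1.06, adjusted p = 0.0375), but not for Btla (-1.06, adjusted p = 0.132). The Nrp2 difference from wild type passed without 15lox/1638N array 3 (adjusted p = 0.0493), in the fit with trend and robust options (adjusted p = 0.0297) and with array weights (adjusted p = 0.0158). Its other probe sets gave 0.62, 0.06 and 0.89, the mean of probe sets gave 0.82 (adjusted p = 0.324), and with sex type as a covariate the adjusted p was 0.167. Enc1, a kelch protein that binds actin (0.64 ± 0.12, adjusted p = 0.11), and Spanxn4 (0.60 ± 0.10, adjusted p = 0.0588) were the other genes of lowest p on the higher side. Enc1 read 10.08, 10.10 and 10.12 in 15lox/1572T, beside means of 10.21 in 15lox/1638N and 10.06 in 15lox/15lox.

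Promoters of 4 of these genes are printed. Pdcd1, Axin2 and Nrp2 each stood between wild type and the stronger genotypes, and Edar overlapped wild type. Of these genes only Pdcd1 was called, and Pdcd1 and Nrp2 lay close to the threshold on either side (adjusted p = 0.0374 and 0.07). Each line gives the 250 bases before the annotated start, 5′ to 3′ on the strand of the gene, from RefSeq on build GRCm38.p6. Capitals mark the letters CTTTGAT or CTTTGAA, the core string that Tcf and Lef factors bind, searched on both strands.
Edar (chr10:58675697-58675946, minus strand): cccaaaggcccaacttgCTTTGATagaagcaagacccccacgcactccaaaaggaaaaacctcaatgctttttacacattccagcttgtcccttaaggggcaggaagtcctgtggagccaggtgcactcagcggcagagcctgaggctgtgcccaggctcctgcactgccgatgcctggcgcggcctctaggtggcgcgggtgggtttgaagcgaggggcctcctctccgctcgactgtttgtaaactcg
Nrp2 (chr1:62703067-62703316, plus strand): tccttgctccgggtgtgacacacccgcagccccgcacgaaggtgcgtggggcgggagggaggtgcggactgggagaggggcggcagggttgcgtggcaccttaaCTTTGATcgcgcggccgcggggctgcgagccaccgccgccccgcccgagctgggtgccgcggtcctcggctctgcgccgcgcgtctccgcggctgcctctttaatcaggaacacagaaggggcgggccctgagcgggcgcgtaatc
Pdcd1 (chr1:94052554-94052803, minus strand): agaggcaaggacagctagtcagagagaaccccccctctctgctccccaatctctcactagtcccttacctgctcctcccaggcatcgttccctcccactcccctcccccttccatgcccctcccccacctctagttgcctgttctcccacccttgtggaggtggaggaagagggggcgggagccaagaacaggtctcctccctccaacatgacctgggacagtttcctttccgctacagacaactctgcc
Axin2 (chr11:108920099-108920348, plus strand): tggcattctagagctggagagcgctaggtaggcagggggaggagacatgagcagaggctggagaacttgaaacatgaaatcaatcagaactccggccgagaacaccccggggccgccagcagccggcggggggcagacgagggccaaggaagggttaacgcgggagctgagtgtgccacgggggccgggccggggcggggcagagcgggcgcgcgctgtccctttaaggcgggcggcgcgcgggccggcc

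CTTTGAT stands 233 bases before the start of Edar and 146 bases before that of Nrp2, and neither string occurs in these windows of Pdcd1 and Axin2. Either string is in 7.48% of the 32851 promoter windows of the table and in 8.63% of its genes. Of the genes tested 14453 had a promoter and 1054 of these held a string (7.29%). Of the 20 called genes 13 had a promoter in the table and 0 held a string. Of the 55 genes that were lower in 15lox/1572T than in both other mutant genotypes (described below), 43 had a promoter and 4 held a string (9.3%). These matches describe letters in a short window and do not show binding.

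The 5 lists of Wnt pathway genes held 0 calls by limma, and 1 to 3 members of each had an unadjusted p under 0.05. For comparison, 1440 of all 18194 genes had such a p. All 15lox/1572T arrays lay above wild type for 4.02% of all genes and below for 9.91%. Of 23 measured negative feedback genes, 0 were called and 3 had such a p. All 15lox/1572T arrays lay above wild type for 3 (13%), namely Axin2, Rnf43, a ubiquitin ligase that removes Wnt receptors (0.68 ± 0.42), and Dkk1, and below for 2 (8.7%), the corepressors Tle2 (-0.71 ± 0.20, adjusted p = 0.342) and Tle3. The median was 0.06. Of 32 measured targets known from other tissues 2 had an unadjusted p under 0.05 and 0 were called, with 1 above (Met, 0.83 ± 0.25, adjusted p = 0.392), 1 below (Tbx3, -0.27 ± 0.11, adjusted p = 0.54) and a median of -0.02. Ccnd1 differed by -0.16 ± 0.17 and Myc by 0.25 ± 0.41, with overlapping groups. Of 21 members of the destruction complex 0 were called, with Apc and Axin2 above and a median of 0.01. Apc counts as above through probe set 1435543_at alone, and its other 3 probe sets lay below wild type (-0.93, -0.77 and -0.75). Beta-catenin itself, Ctnnb1, read 13.80, 13.66 and 13.77 in wild-type and 13.75, 13.80 and 13.64 in 15lox/1572T cells (-0.01 ± 0.10). Of 12 Lef/Tcf factors and cofactors 0 were called, and Bcl9l, a coactivator of beta-catenin, stood lowest (-0.66 ± 0.11, adjusted p = 0.0588). Other Bcl9l probe sets gave -0.04 and -0.01, and the mean of probe sets gave -0.24 (adjusted p = 0.474). Of 18 Wnt receptors 0 were called, with Fzd3 above (0.56 ± 0.23) and Lrp5 below (-0.39 ± 0.16). Tcf7 had no single-symbol probe set.

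Position along the chromosome was looked at because Cd14 and Cdc23, called higher, are both on the chromosome of Apc. In the gene order of RefSeq assembly GRCm38.p6, used for neighbourhood only, Cdc23 was 9 and Cd14 48 measured genes after Apc. Among the 50 measured genes after Apc 2 were called, 8 had all 15lox/1572T arrays above wild type (16%, against 4.02% of all genes) and 7 below (14%, against 9.91%), and 5 differed by over 0.5 upwards and 0 downwards. The window was set with these calls known and ends just past Cd14. Over the 100 genes after Apc the shares were 10% above and 9% below, and over the other 462 measured genes of the chromosome 5.19% and 9.09%. Among the 50 genes before Apc 0 were called, 2 lay above and 2 below (4% each), and 0 differed by over 0.5. Over all genes 182 differed by over 0.5 upwards and 475 downwards.

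**Figure D3:**
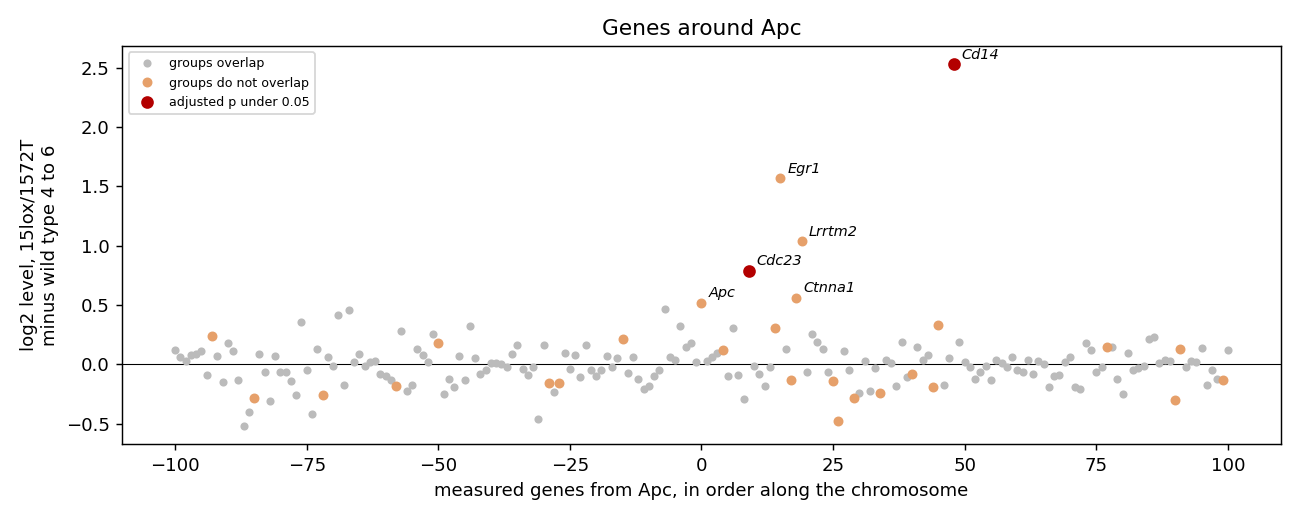
Difference between 15lox/1572T and wild-type arrays 4 to 6 (vertical axis, log2) for the 100 measured genes on each side of Apc, in their order along the chromosome (horizontal axis, number of genes from Apc). Cd14 (2.53), Egr1 (1.57), Lrrtm2 (1.04), Cdc23 (0.79) and Ctnna1 (0.56) stand above the rest, all on the same side.

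The other 3 of the 5 did not pass. Egr1, an immediate early transcription factor, lies 15 genes after Apc and read 9.89, 9.45 and 9.22 in wild-type and 10.87, 12.03 and 10.37 in 15lox/1572T cells (1.57 ± 0.39, adjusted p = 0.248). Ctnna1, alpha-catenin of the adherens junction, lies 18 genes after Apc and gave 0.56 ± 0.18 (adjusted p = 0.435). Lrrtm2, a synaptic adhesion protein, lies 19 genes after Apc, is known to be nested in Ctnna1 and gave 1.04 ± 0.45 (adjusted p = 0.597). The other mutant genotypes, which share the controls, read for Cdc23 0.90 (15lox/1638N) and 0.77 (15lox/15lox), for Cd14 3.56 and 2.45, for Egr1 0.68 and 0.75, for Lrrtm2 0.65 and 1.06 and for Ctnna1 0.45 and 0.59, all above wild type. The part of chromosomal position in these values was not tested.

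Among the markers of differentiated lineages, dendritic cell and lymphoid lists had the most members below wild type. In bulk RNA, fewer cells of a type and less RNA per cell cannot be told apart. Of 13 measured plasmacytoid dendritic cell markers 12 had a negative difference, 7 had all 15lox/1572T arrays below wild type (53.8%, against 9.91% of all genes) and 0 above, and the median was -0.88 against -0.03 over all genes. Pacsin1 alone was called, and 8 had an unadjusted p under 0.05, all 8 lower. The mean level of the list was 9.76, 10.10 and 9.64 on the wild-type and 8.70, 8.98 and 9.35 on the 15lox/1572T arrays. The other mutant genotypes, which share the controls, were also below wild type. The list read 8.27 to 8.75 in the genotype with the other hypomorphic allele and 8.56 to 9.16 in 15lox/15lox cells. The fall was thus not particular to 15lox/1572T.

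**Figure D4:**
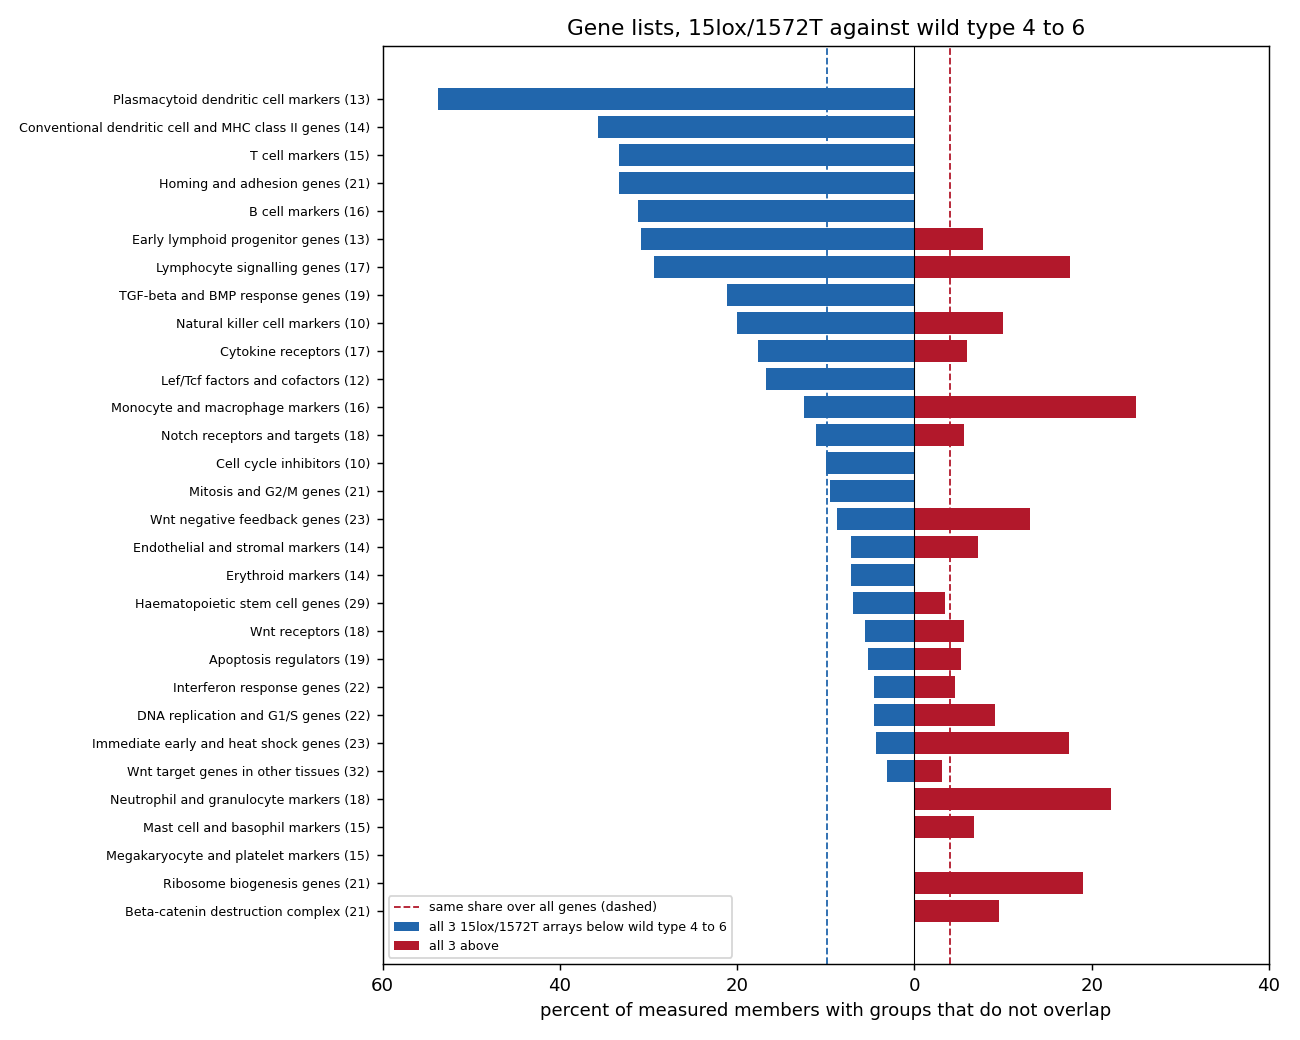
Share of measured members (horizontal axis, percent; number measured in parentheses) of each gene list whose 3 15lox/1572T arrays all lie below (left) or above (right) wild-type arrays 4 to 6, with dashed lines at the same share over all genes, 9.91% and 4.02%. Plasmacytoid dendritic cell markers reach 53.8% below and monocyte markers 25% above.

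Individual members of that list show the array order behind the mean. Spib, a transcription factor of plasmacytoid dendritic and B cells, read 10.11, 11.26 and 9.50 in wild-type and 7.39, 8.45 and 9.05 in 15lox/1572T cells (-1.99 ± 0.58, adjusted p = 0.346). Ccr9, a homing receptor for thymus and gut, read 10.23, 10.61 and 9.68, against 7.41, 8.36 and 9.10 (-1.89 ± 0.37, adjusted p = 0.134). Ly6d, found on early B-lineage progenitors and plasmacytoid dendritic cells, read 11.24, 11.84 and 10.36, against 8.51, 9.46 and 10.58 (-1.63 ± 0.57, adjusted p = 0.479). Array 1 was the lowest and array 3 nearest to wild type in all 3, and for Ly6d array 3 overlapped. Without array 3 the Ccr9 difference was -2.29 and passed (adjusted p = 0.0329). Siglech, a surface lectin of these cells, gave -0.97 ± 0.35 (adjusted p = 0.492), and Tlr7, their receptor for single-stranded RNA, -0.88 ± 0.35 (adjusted p = 0.539). Bst2 (-0.27 ± 0.18) and Tcf4 (-0.05 ± 0.08), which other cells also express, did not pass either.

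The conventional dendritic cell and MHC class II list also had more members below than above. Over all genes the shares were 9.91% below and 4.02% above, and 1440 of 18194 had an unadjusted p under 0.05. Of 14 measured genes 0 were called by limma, 6 had an unadjusted p under 0.05, 5 had all 15lox/1572T arrays below wild type (35.7%) and 0 above, and the median was -0.43. Its mean level was 9.59 to 10.17 in wild-type and 8.87 to 9.49 in 15lox/1572T cells. It was 8.32 to 8.92 in the genotype with the other hypomorphic allele. In 15lox/15lox cells it was 8.92 to 9.71, which reaches into the wild-type range. Ciita, the master activator of MHC class II genes, read 7.36, 8.12 and 6.62 in wild-type and 5.80, 5.88 and 6.13 in 15lox/1572T cells (-1.43 ± 0.30, adjusted p = 0.149). It passed without wild-type array 6 (-1.80, adjusted p = 0.0226). Cd74, the invariant chain, read 11.92, 12.89 and 10.69, against 9.0, 9.07 and 11.05 (-2.13 ± 0.67, adjusted p = 0.416), so that array 3 reached into the wild-type range. H2-Eb1 gave -1.98 ± 0.45 (adjusted p = 0.209) and Itgax, the integrin CD11c, -1.21 ± 0.40 (adjusted p = 0.435).

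**Figure D5:**
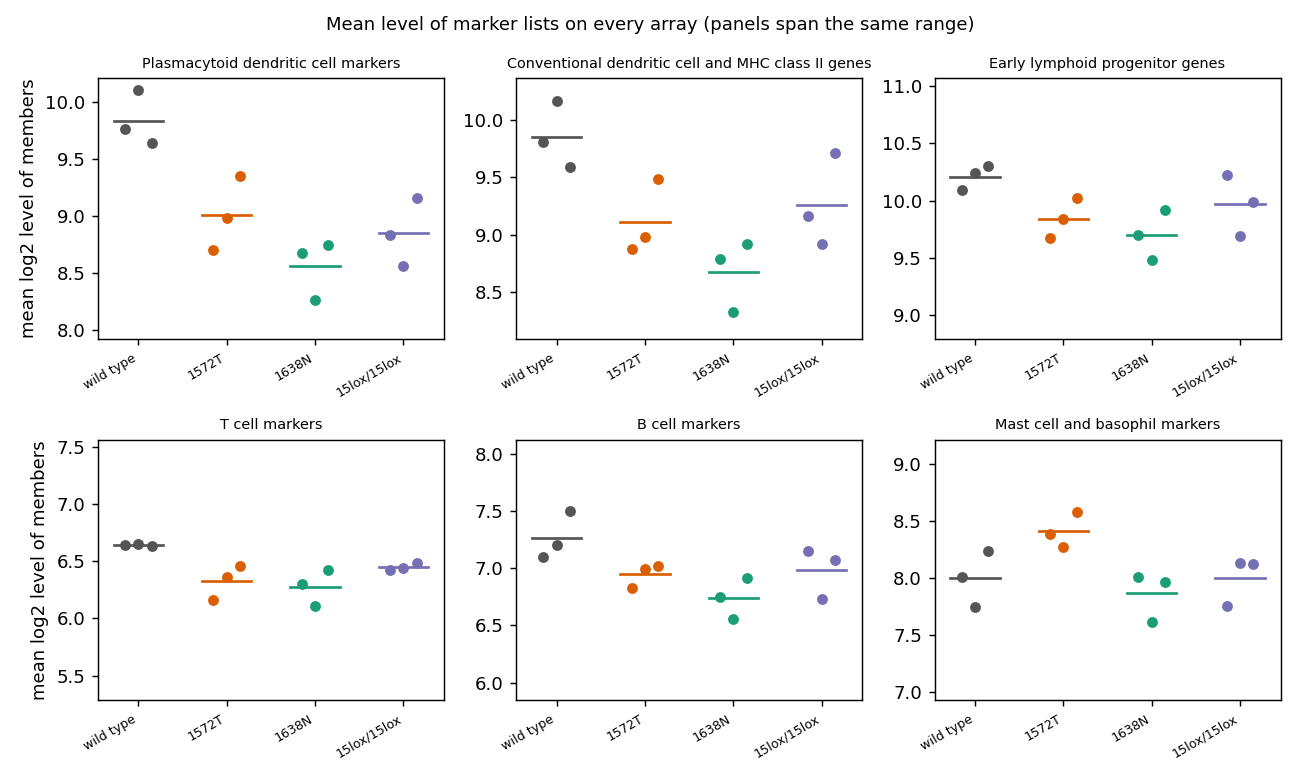
Mean log2 level of the measured members of 6 marker lists on every array (vertical axis; panels span the same range), by genotype, with lines at the group means. Plasmacytoid dendritic cell markers lie at 8.70 to 9.35 in 15lox/1572T against 9.64 to 10.10 in wild type, and mast cell markers at 8.27 to 8.58 against 7.75 to 8.24. With the other hypomorphic allele these lists lie at 8.27 to 8.75 and 7.62 to 8.01. In 15lox/15lox they lie at 8.56 to 9.16 and 7.76 to 8.13.

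T and B cell lists had smaller negative medians. Their counts stand beside 9.91% of all genes below and 4.02% above wild type. At an unadjusted p under 0.05 there were 1440 of all 18194 genes. Of 15 T cell markers 1 was called (Cd3g), 5 lay below wild type (33.3%) and 0 above, with a median of -0.28. The mean level was 6.63 to 6.65 in wild-type and 6.16 to 6.46 in 15lox/1572T cells. It was also lower in the other mutant genotypes, at 6.11 to 6.42 with the other hypomorphic allele and 6.42 to 6.48 in 15lox/15lox. Cd3e gave -0.34 ± 0.10 (adjusted p = 0.355) and Cd3d -0.28 ± 0.10 (adjusted p = 0.496) at low levels, near percentiles 28 and 34 of all probe sets. Gata3, a transcription factor of T cell commitment, gave -0.64 ± 0.27 (adjusted p = 0.587) and was lower than in 15lox/15lox by 1.86 (adjusted p = 0.00343). Of 16 B cell markers 0 were called and 6 had an unadjusted p under 0.05, 1 higher and 5 lower. All 15lox/1572T arrays lay below wild type for 5 (31.2%) and above for 0, and the median was -0.24. The higher one of the 6 was Vpreb1 (0.51 ± 0.21, adjusted p = 0.556), with overlapping groups. Blk, a Src family kinase of B cells, read 6.31, 6.85 and 7.32 in wild-type and 4.86, 5.45 and 5.48 in 15lox/1572T cells (-1.56 ± 0.28, adjusted p = 0.095). Ighm, the mu heavy chain, read 11.73, 12.04 and 11.72, against 10.87, 10.92 and 11.09 (-0.87 ± 0.16, adjusted p = 0.103). Other Ighm probe sets gave -0.50 to 0.04, and the mean of probe sets gave -0.20 (adjusted p = 0.627). Pax5, which fixes B cell identity, was near percentile 28 of all probe sets and did not differ by more than its error (0.00 ± 0.10).

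Early lymphoid and lymphocyte signalling lists held members on both sides of wild type. Among all genes 9.91% lay below and 4.02% above, and 1440 of 18194 had an unadjusted p under 0.05. Of 13 early lymphoid progenitor genes 0 were called, 6 had an unadjusted p under 0.05, 4 lay below (30.8%) and 1 above (7.69%), with a median of -0.26. The exception was Il7r, the receptor chain for interleukin 7, at 7.49, 7.84 and 9.37 in wild-type and 9.71, 9.64 and 9.78 in 15lox/1572T cells (1.47 ± 0.50, adjusted p = 0.459), where the wild-type arrays held the spread. Its level was lower than in 15lox/15lox by 2.63 (adjusted p = 0.018). Notch1, the receptor that starts T cell commitment, gave -0.52 ± 0.15 (adjusted p = 0.332) and its target Dtx1 -0.86 ± 0.22 (adjusted p = 0.29). Of 17 lymphocyte signalling genes 2 were called, Pdcd1 higher and Nfatc2 lower, with 3 above (17.6%) and 5 below (29.4%). Lat, the adaptor of the T cell receptor, gave -0.46 ± 0.14 (adjusted p = 0.384). Of 10 natural killer cell markers 1 was called (Il2rb, lower), and 2 lay below (20%) and 1 above.

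Granulocyte, mast cell and megakaryocyte lists had positive medians and 0 calls, with 2, 2 and 1 members at an unadjusted p under 0.05. Such a p was found for 1440 of all 18194 genes, and 4.02% of all genes lay above and 9.91% below wild type. Of 18 neutrophil and granulocyte markers 4 lay above wild type (22.2%) and 0 below, with a median of 0.03: Ms4a3 (0.63 ± 0.14, adjusted p = 0.209), Prtn3 (0.23 ± 0.09), Mpo (0.14 ± 0.08) and Lcn2 (0.27 ± 0.39), genes of granule proteins and granulocyte progenitors. Of 15 mast cell and basophil markers 12 were positive and 1 lay above (6.67%), with a median of 0.31. That gene was Hdc, the enzyme that makes histamine, at 10.18, 9.89 and 10.62 in wild-type and 11.03, 10.83 and 11.50 in 15lox/1572T cells (0.89 ± 0.30, adjusted p = 0.465). Cma1, a mast cell protease, read 5.37, 6.18 and 8.91 on the 15lox/1572T arrays, so that array 3 alone was high. Of 15 megakaryocyte and platelet markers 13 were positive with a median of 0.22, and 0 lay outside the wild-type range. Of 14 erythroid markers 1 lay below, 0 had an unadjusted p under 0.05 and the median was 0.05.

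Stem cell and growth programmes showed small differences. As a reference, 4.02% of all genes lay above and 9.91% below wild type, and 1440 of 18194 had an unadjusted p under 0.05. Of 29 measured haematopoietic stem cell genes 0 were called, 1 lay above (Myb, 0.19 ± 0.10) and 2 below (Ptpn21, -0.55 ± 0.15, and Hoxa9, -0.19 ± 0.09), with a median of 0.01. Tek, the angiopoietin receptor, differed from wild type by 0.41 ± 0.27 but was lower than in 15lox/1638N by 2.00 (adjusted p = 0.00763) and than in 15lox/15lox by 1.82 (adjusted p = 0.00357). Of 21 mitosis genes 0 were positive, with differences from -0.30 to 0.00, a median of -0.11 and 2 below (9.52%), Ccnb2 (-0.30 ± 0.10) and Bub1b (-0.30 ± 0.10). Of 22 replication genes 16 were positive, with a median of 0.10, and of 21 ribosome biogenesis genes 16 were positive and 4 lay above (19%), with a median of 0.10. Of 10 cell cycle inhibitors 1 lay below, Cdkn1c (-0.38 ± 0.18). None of these genes was called by limma, and over the 5 lists 5 genes had an unadjusted p under 0.05.

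The remaining lists held 2 calls. Their counts are read beside all genes, of which 9.91% lay below and 4.02% above wild type. An unadjusted p under 0.05 was found for 1440 of all 18194 genes. Of 19 TGF-beta and BMP response genes Bmper was called, 4 lay below (21.1%) and 0 above; Sparc, a matrix protein, read 8.37, 8.40 and 8.52 in wild-type and 6.21, 6.22 and 8.27 in 15lox/1572T cells, so that arrays 1 and 2 carried the difference (-1.53 ± 0.48, adjusted p = 0.4), which passed without array 3 (-2.21, adjusted p = 0.0255). Of 17 cytokine receptors Il2rb was called. Of 21 homing and adhesion genes 0 were called, 5 had an unadjusted p under 0.05 and 7 lay below (33.3%), among them Itgb2 (-0.46 ± 0.19) and Robo4 (-0.39 ± 0.14). Of 23 immediate early and heat shock genes 0 were called, 4 had an unadjusted p under 0.05 and 4 lay above (17.4%). Hspa1b read 7.69, 7.91 and 8.18 in wild-type and 10.14, 9.17 and 9.11 in 15lox/1572T cells (1.55 ± 0.32, adjusted p = 0.149). Other Hspa1b probe sets gave 0.04 and 0.24. Klf2 was lower at -1.21 ± 0.28 (adjusted p = 0.209). In the lists of 19 apoptosis regulators, 22 interferon response genes, 18 Notch genes and 14 endothelial and stromal genes 0 were called, 2, 1, 3 and 2 had an unadjusted p under 0.05, and medians were 0.00, -0.12, -0.01 and -0.07. In all, 7 distinct list members were called against wild type, 2 higher and 5 lower.

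Direct comparisons with the stronger genotypes, which do not use the wild-type arrays as a reference, found more genes than the comparison with wild type. Against 15lox/1638N 64 genes were called, 4 higher (0.022%) and 60 lower (0.33%) in 15lox/1572T. Against 15lox/15lox 297 were called, 19 higher (0.104%) and 278 lower (1.53%). Leaving out each array in turn gave 38 to 73 for the former, with the 38 without 15lox/1572T array 2, and 237 to 302 for the latter. The lowest genes were those that the stronger genotypes hold high. Sult1a1 was 45.9-fold lower than in 15lox/1638N (adjusted p = 0.000164) and 114-fold lower than in 15lox/15lox (adjusted p = 1.04e-05). Edar was 16.6-fold (adjusted p = 0.000136) and 68.9-fold lower (adjusted p = 1.46e-06). Ahsg, the serum glycoprotein fetuin-A, was 11.1-fold and 68.0-fold lower, at 6.41, 5.86 and 6.12 in 15lox/1572T and 6.09, 6.31 and 5.70 in wild-type cells. The 15lox/1572T levels of these 3 genes are low and not shown to be above background, so their folds are best read as lower bounds.

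Among these genes 55 were lower in 15lox/1572T than in both other genotypes. The 2 comparisons share the 15lox/1572T arrays, so the number that coincides is not read as a result. Against wild type 0 of the 55 were called by limma and 19 had an unadjusted p under 0.05. In 36 the groups overlapped, 15 had all 15lox/1572T arrays above wild type and 4 below (4.02% and 9.91% of all genes). The 55 were chosen through the same 15lox/1572T arrays, so nothing is read from these counts. The median difference from wild type was 0.23, beside medians of -1.67 against 15lox/1638N and -2.17 against 15lox/15lox. The highest 15lox/1572T array was array 3 in 25 of the 55, array 1 in 16 and array 2 in 14, and the lowest was array 1 in 24. Further members by size were Zcchc14 (-3.40 against 15lox/1638N, adjusted p = 0.00225), Ntrk3, a neurotrophin receptor (-3.06, adjusted p = 0.00512), Cd83, a surface protein of activated antigen-presenting cells (-4.61 against 15lox/15lox, adjusted p = 9.61e-06), Efhd1 (-4.90, adjusted p = 6.95e-05), Phlda1 (-4.73, adjusted p = 3.30e-05) and Mb21d2 (-4.69, adjusted p = 4.30e-05). Bmp4, a bone morphogenetic protein, was lower than in 15lox/15lox by 4.60 (adjusted p = 0.00012), while its difference from 15lox/1638N did not pass (-2.24, adjusted p = 0.0682). Of the feedback genes 3 were lower than in 15lox/1638N (Axin2, Apcdd1 and Dkk2) and 8 were lower than in 15lox/15lox.

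A few genes were higher in 15lox/1572T than in both stronger genotypes, and these overlapped wild type. Kcne3, a subunit of potassium channels, read 7.89, 7.46 and 7.74 in 15lox/1572T cells and 7.42, 7.23 and 7.72 in wild-type cells. It was 3.49-fold above 15lox/1638N (adjusted p = 0.0489) and 3.41-fold above 15lox/15lox (adjusted p = 0.0169). S100a5, a calcium-binding protein, was 2.17-fold (adjusted p = 0.00902) and 1.94-fold (adjusted p = 0.007) above them and differed from wild type by -0.27 ± 0.16. Gchfr, the feedback regulator of GTP cyclohydrolase, was 1.64-fold (adjusted p = 0.034) and 1.63-fold (adjusted p = 0.0105) above them and differed from wild type by 0.09 ± 0.12. Against 15lox/15lox alone, Vpreb1, part of the surrogate light chain of pre-B cells, was 2.26-fold higher (adjusted p = 0.0118), Clec4e, a C-type lectin, 1.85-fold (adjusted p = 0.00836), Ms4a6d 2.00-fold (adjusted p = 0.0425), Rap1gap2 1.87-fold (adjusted p = 0.0136) and Micall2 1.61-fold (adjusted p = 0.0384).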

How the data were processed

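Expression was measured on 15 arrays, 1 per sample. Values deposited by the authors are on the log2 scale, as their range shows. The submitters' processing notes name RMA and build mm9, neither with a role or version, and settings and array filters are unknown here. Per the labels' protocols RNA was biotin-labelled after amplification (Nugen Ovation V2). RMA as usually run makes array distributions alike, so differences are relative to all probe sets of an array, and no depth exists for arrays.

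Of 45101 probe sets 34958 had 1 symbol in the platform annotation, 932 several and 9211 none. The single-symbol probe set with the highest mean over all arrays represented each gene, which gave 18194 genes, of which 9012 had over 1 probe set. No filter or further normalization was applied. RefSeq (GRCm38.p6) supplied promoters and gene order only, and 18146 genes matched by symbol.

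A linear model per gene (lmFit and eBayes of limma 3.58.1, under R 4.3.3) covered 12 arrays (wild-type arrays 4 to 6 and the 3 mutant genotypes, 8 residual degrees of freedom). Tests were two-sided, adjusted by Benjamini and Hochberg over all genes, and called under 0.05. The fit was tested on simulated data. Groups were taken from the genotype labels.

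Gene lists, members and tests were chosen with earlier results of these data known. Lists were not tested and are given by counts and medians. The naming rule took the 12 highest and 12 lowest called genes with groups that do not overlap, filled up by lowest p, fixed Wnt genes, called members of each list or else its 2 members of lowest p, and 8 genes in each direction of the direct comparisons, without placeholder and sex-linked symbols. Other genes named were chosen after their values were seen, among them Cand2, Rasgrp1, Apcdd1, Dkk2, Spib, Il7r, Tek and the genes near Apc. Alternatives covered the control arrays, the arrays fitted, filtering, normalization, eBayes options, array weights, threshold, probe sets, sex type, replicate number and each array left out in turn.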

Additional observations from a re-analysis of the deposited data

How the results depend on the processing

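The number of genes called in 15lox/1572T against wild type (20) was 197 with all 6 wild-type arrays, 84 with array weights, 13 over all probe sets singly, 8 with sex type as a covariate, 6 with a filter on low values, 2 with male-type arrays only and 1 with the 2 groups alone, and it ran from 5 to 27 with each array left out. It was 20 with wild-type arrays 1 to 3 as controls, 15 of them shared, and 16 to 29 under the other 7 settings. Against 15lox/1638N (64) it was 124, 125, 31, 38 and 16 with all 6 wild-type arrays, array weights, the filter, male-type arrays and the 2 groups alone, and 38 to 73 with each array left out. Against 15lox/15lox (297) it was 123 with the filter, 141 with male-type arrays, 190 with the 2 groups alone, 451 over all probe sets, and 237 to 302 with each array left out. The filter and the smaller sets test fewer genes or arrays, and the cause was not tested for the other settings.

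With all 6 wild-type arrays 3 Apc probe sets passed: 1420956_at (-0.93), 1435543_at (0.52) and 1450056_at (-0.75). These controls include the shifted arrays 1 to 3, so nothing is read from the passes. With each array left out, 1420956_at ran from -1.0 to -0.84, 1420957_at from -0.93 to -0.54, 1435543_at from 0.41 to 0.61 and 1450056_at from -0.92 to -0.63. List members called (7) were 21 with all 6 wild-type arrays and 3 with sex type as a covariate. Of 68 named genes not called, 21 passed under at least 1 alternative, 19 of them with all 6 wild-type arrays. No called gene changed sign.

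The replicate number as a block, which needs the shifted wild-type arrays 1 to 3 because arrays 4 to 6 share no number with the mutant arrays, gave 29, 95 and 299 calls. Deviations of same-numbered arrays from their group means correlated at -0.08, -0.03 and -0.04 between 15lox/1572T and 15lox/1638N. With 15lox/15lox the correlations were 0.16, 0.01 and 0.05, and with wild-type arrays 1 to 3 -0.10, 0.03 and -0.09. Such deviations, from 3 arrays of mixed sex type and in part from the shifted arrays, cannot decide whether the numbers pair the arrays.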
